A study of Mus musculus with 145 samples.

Results

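Monocytes sorted from mouse lung were compared with Ly6C+ monocytes sorted from mouse blood, as part of a compendium of sorted immune cells measured on Affymetrix arrays. The arrays were chosen by the group name in their titles, which gave 6 of the 145 arrays of the series: 3 of lung monocytes (Mo.Lu), 2 of blood monocytes titled Mo.6+2-.BL and 1 of blood monocytes titled Mo.6+2+.BL. All came from male C57BL/6 mice aged 6 weeks, with no treatment or altered gene in the labels. The lung gate was negative for MertK, intermediate or low for CD11c and positive for CD11b, CD64, Ly6C and MHCII. Both blood groups were gated on CD115 and Ly6C after removal of cells with B220, CD3, Nk1.1 or Ly6G, whereas no exclusion marker is listed for the lung. The test set Mo.Lu against Mo.6+2-.BL, which has 2 arrays, and the Mo.6+2+.BL array is given as a level beside them. The titles distinguish the blood groups by a 2+ or 2-, but the marker field reads MHCII+ for both. The class II RNA went with the titles, as given further on, and the groups are called here by their titles.

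Ly6C+ monocytes leave the bone marrow through the chemokine receptor Ccr2, circulate for a short time and enter tissues, and some of those found in tissue keep a monocyte phenotype while gaining MHC class II. They express Csf1r, the receptor for macrophage colony-stimulating factor. When a monocyte adheres or is stimulated, a first wave of immediate early genes (Fos, Jun, Egr and Nr4a transcription factors and phosphatases that limit their own pathway) is transcribed from preformed factors, followed by NF-kB targets such as Il1b, chemokines and the feedback inhibitors of NF-kB. RNA of these genes is short-lived.

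Both lung and blood samples carried RNA of the monocyte genes Ccr2 and Csf1r. Intensity, the deposited linear signal of a probe set, was 4519, 3349 and 4608 for Ccr2 in Mo.Lu replicates 1, 2 and 3, 4631 and 4949 in Mo.6+2-.BL replicates 2 and 3, and 3778 in the Mo.6+2+.BL array. Values below are given in this order. All 3 lung values of Ccr2 lay below those of Mo.6+2-.BL and around that of Mo.6+2+.BL, and the difference did not pass the test (log2 difference, Mo.Lu minus Mo.6+2-.BL, ± SE, -0.22 ± 0.25, adjusted p = 0.64). Csf1r encodes the CD115 of the blood gate, so its presence in blood describes the sort. It measured 4449, 4284 and 4392 in lung, 3701 and 3213 in Mo.6+2-.BL and 4204 in Mo.6+2+.BL. Its difference of 0.34 ± 0.14, adjusted p = 0.14, missed the threshold as well. Itgam, which encodes the CD11b of the lung gate, and Ptprc, the pan-leukocyte CD45, also did not pass (0.13 ± 0.17, adjusted p = 0.68, and 0.07 ± 0.13, adjusted p = 0.79). Mertk, on which the lung gate was negative, lay near background on all 6 arrays (63.1, 67.8 and 78.6 in lung), background being taken as an intensity of 87.4, the 95th percentile of 1035 probe sets of olfactory receptor genes. For Ly6c1 and Ly6c2 no probe set carries just that symbol, so they were not analysed here.

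Genes that mark other cells were compared as summed intensities. None of the lists of neutrophil, eosinophil, basophil and mast cell, lymphocyte, platelet, red cell, epithelial, endothelial or fibroblast genes summed higher in all lung arrays than in Mo.6+2-.BL. The 11 measured neutrophil genes summed to 1653 to 1829 in lung and 1953 to 2111 in Mo.6+2-.BL, with 9 and 8 of them near background. The 9 NK cell genes summed to 326 to 346 and 351 to 355, with 8 near background in both. The mast cell and basophil sums overlapped narrowly, at 484 to 533 in lung and 447 to 490 in Mo.6+2-.BL. The 1 tested gene of that list was called higher (0.64), as was 1 of 2 tested neutrophil genes, Il1r2. Of 4 tested alveolar type 1 genes 1 was called lower. The 9 measured genes of MertK+ CD64+ macrophages summed to 8816 to 13009.8 in lung, 7481 to 8577 in Mo.6+2-.BL and 10535 in Mo.6+2+.BL, with 3 members near background in lung. The CD11b+ lung macrophages of the same series (MF.11c-11b+.Lu) summed to 54350.1 to 60933 on that list. The sums of 12 dendritic cell genes overlapped between lung (5154 to 7638) and Mo.6+2-.BL (4688 to 6162), with 9256 in Mo.6+2+.BL and 4 members near background in each group. The alveolar macrophage list gave 1589 to 2087 in lung and 1563 to 1864 in Mo.6+2-.BL, against 29545 to 33625 in alveolar macrophages (MF.Alv.Lu).

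Lung monocytes differed from Mo.6+2-.BL in 1156 of 12900 tested probe sets at an adjusted p under 0.05 in limma. Of these 698 were higher in lung (5.41%) and 458 lower (3.55%). Quantile normalization of the arrays gave 626 higher and 632 lower, so the split between directions depends on the scaling, and the median over all tested probe sets was 0.015 on the log2 scale. At least a 2-fold difference was reached by 222 of them (1.72%), 183 higher and 39 lower. Leaving out single arrays lowered the count to 616 without Mo.Lu replicate 2, 647 without Mo.Lu replicate 3, 414 without Mo.6+2-.BL replicate 2 and 357 without Mo.6+2-.BL replicate 3. In 6283 probe sets (48.7%) the arrays of the groups did not overlap. Log2 values of array pairs correlated over probe sets with r between 0.9933 and 0.9959 within lung, 0.9947 within Mo.6+2-.BL and 0.983 to 0.9874 between them. Median intensities of the 6 arrays ranged from 114.6 to 121.2.

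Several labelled differences run along with the organ. The labels give a FACSAria sorter for the lung arrays and the Mo.6+2+.BL array but dissection or trimming as the separation method of both Mo.6+2-.BL arrays, and the gates differ as described. The sample numbers of the lung monocyte arrays also form a run apart from those of all other groups used here, with no meaning labelled. Organ, gate, separation method and any difference between these runs cannot be told apart in this comparison. The labels do not say whether arrays of a group came from separate mice, so p-values measure the spread between arrays only. That spread was pooled over 14 arrays of 5 groups, which include lymph node monocytes and lung macrophages. In bulk samples of sorted cells, fewer cells with a transcript and less of it per cell cannot be told apart either.

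Of the 25 gene lists examined, the list of immediate early and stress genes had the highest share of tested members called higher, 31 of 42. It was followed by MHC class II presentation with 7 of 11, NF-kB targets and regulators with 12 of 25, coagulation and fibrinolysis with 5 of 11, and lipid handling and cholesterol synthesis with 8 of 19. No tested member of the immediate early, class II, NF-kB or lipid lists was called lower. The classical monocyte list had 2 higher and 3 lower of 20, and cell cycle and granule genes had 0 higher. These counts stand beside the 5.41% of all probe sets called higher and the 3.55% called lower.

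**Figure D1:**
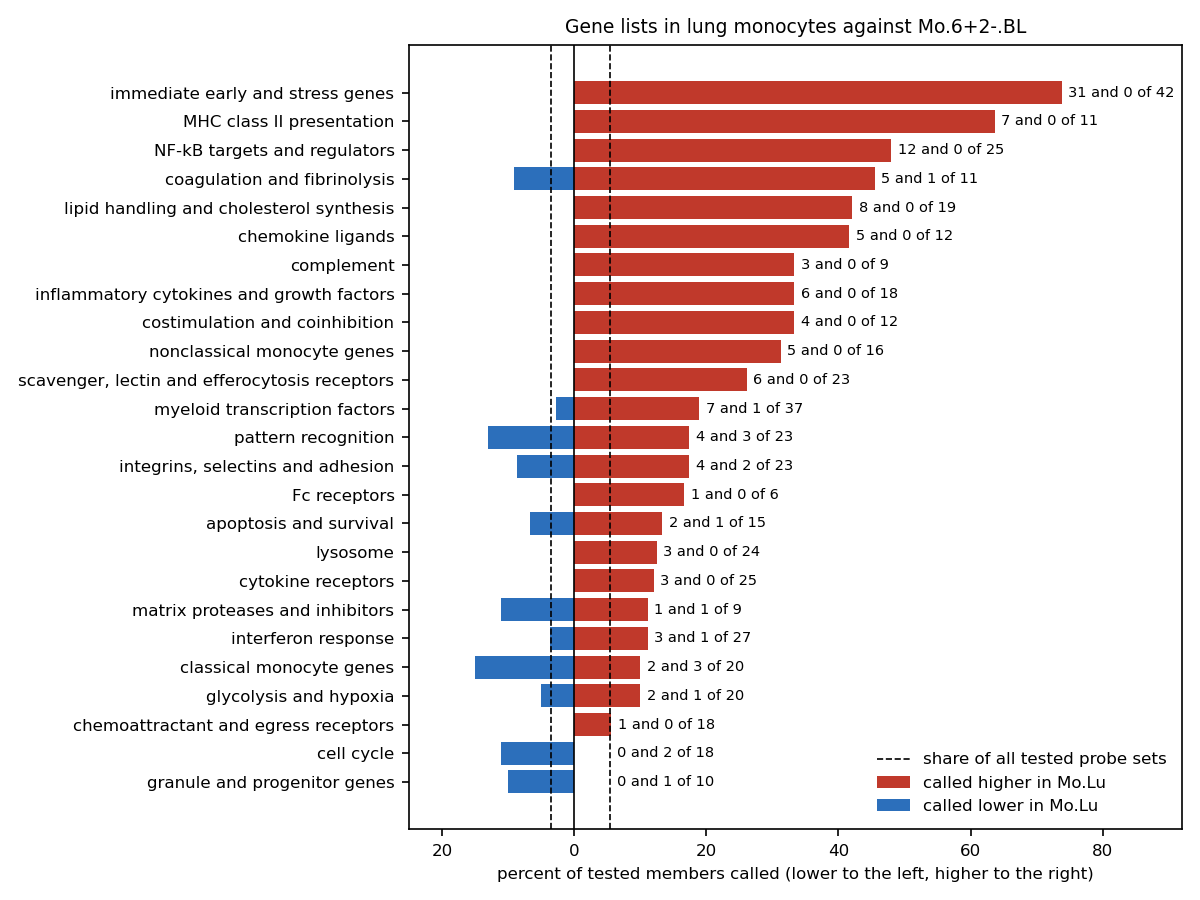
Bars give the percent of each gene list's tested members that were called higher in Mo.Lu (red, to the right) or lower (blue, to the left) than in Mo.6+2-.BL at an adjusted p under 0.05, with the counts of higher and lower calls of tested members written beside them. Dashed lines mark the shares over all 12900 tested probe sets, 5.41% higher and 3.55% lower, which the immediate early list with 31 of 42 exceeds most.

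The 10 largest rises among genes named by rule were those of Ptgs2, Cxcl2, Rgs1, H2-Eb1, Ifrd1, Il1b, H2-Ab1, H2-Aa, Cd14 and Osm, the class II genes being part of the lung gate. Only called genes whose Mo.Lu and Mo.6+2-.BL arrays did not overlap entered this ranking. Ptgs2, the inducible cyclooxygenase that makes prostaglandin precursors, had intensities of 2078, 2333 and 2120.1 in lung, 66.3 and 106 in Mo.6+2-.BL and 70.8 in Mo.6+2+.BL. All 3 lung arrays stood far above the 3 blood arrays, whose values lay around background, and the log2 difference was 4.70 ± 0.24, adjusted p = 5.8e-09. Since the Mo.6+2-.BL mean was below background, the fold is given as a bound, at least 22.6-fold, with each Mo.6+2-.BL array taken at no less than background. Il1b, the pro-inflammatory cytokine interleukin 1 beta, measured 3008, 2706 and 4329.8, then 271 and 304, and 720.3 in Mo.6+2+.BL. Its lung arrays were all above the blood arrays, with Mo.6+2+.BL above Mo.6+2-.BL (3.52 ± 0.22, adjusted p = 3.1e-08). Osm, oncostatin M, a cytokine of the interleukin 6 family, was measured at 1524, 1296 and 1207 in lung against 123 and 147 in Mo.6+2-.BL and 111 in Mo.6+2+.BL. Here the groups were apart with little spread inside each (3.31 ± 0.13, adjusted p = 3.5e-10).

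**Figure D2:**
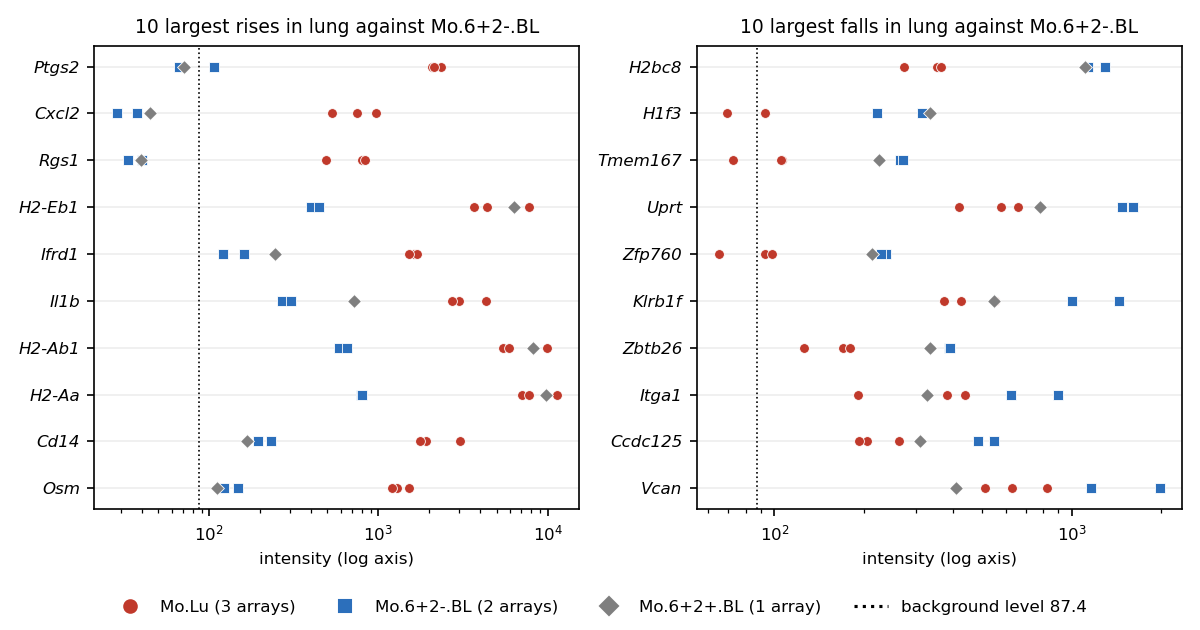
Each row is 1 of the 10 largest rises (left) or falls (right) among called, named genes, and each point 1 array, with intensity on a log axis. Only genes without overlap between Mo.Lu and Mo.6+2-.BL were ranked, so lung arrays (red circles) lie apart from Mo.6+2-.BL (blue squares) in every row by selection. The Mo.6+2+.BL array (grey diamond) lies with the lung for the 3 class II genes and close to Mo.6+2-.BL for Ptgs2, Cxcl2, Rgs1 and Osm.

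The median over 18 tested cytokines and growth factors was 0.10, against 0.015 over all tested. In lung 6 of them were higher and none lower, beside 5.41% and 3.55% of all probe sets. Beside Ptgs2, Il1b and Osm these were the angiogenic factor Vegfa (328, 322 and 326 in lung, 162 and 133 in Mo.6+2-.BL and 134 in Mo.6+2+.BL, 1.15 ± 0.20, adjusted p = 0.0015), the growth factor Pdgfb (1.11 ± 0.20, adjusted p = 0.0025) and the EGF receptor ligand Hbegf (0.67 ± 0.14, adjusted p = 0.0079). Pdgfb and Hbegf were named after their values were seen, and the call of Hbegf was lost without Mo.6+2-.BL replicate 2, at 0.57 (adjusted p = 0.11). For Pdgfb the Mo.6+2+.BL array, at 526, lay within the lung range of 325, 454 and 584. Other cytokines of acute inflammation gave no call. Tnf measured 199, 265 and 342 in lung, 202 and 284 in Mo.6+2-.BL and 356 in Mo.6+2+.BL, with overlapping groups (0.13 ± 0.19, adjusted p = 0.71). Il1rn, the antagonist of the interleukin 1 receptor, likewise did not pass (-0.03 ± 0.18, adjusted p = 0.94), and Il6, Il10, Il12a, Il12b and Il23a were at or near background in both groups.

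Chemokine RNA rose for some ligands, with 5 of 12 tested higher, none lower and a list median of 0.52. Cxcl2, a neutrophil attractant, gave 966, 751 and 532 in lung and background values of 37.6 and 28.3 in Mo.6+2-.BL and 44.7 in Mo.6+2+.BL. Replicate 1 was the highest and replicate 3 the lowest lung array, and all lay above every blood array (4.5 ± 0.30, adjusted p = 6.1e-08, at least 8.33-fold). Ccl3, an inflammatory chemokine, measured 2719, 2713 and 2851 in lung against 354 and 687 in Mo.6+2-.BL and 462 in Mo.6+2+.BL (2.48 ± 0.20, adjusted p = 6.4e-07). Ccl2, the ligand of Ccr2, had 736, 739 and 626 in lung, 172 and 294 in Mo.6+2-.BL and 135 in Mo.6+2+.BL, again without overlap (1.63 ± 0.20, adjusted p = 9.2e-05). Cxcl16, a membrane-bound ligand of Cxcr6, also rose (1.56 ± 0.22, adjusted p = 0.00028, at least 2.34-fold), with Mo.6+2+.BL at 179.9 inside the lung range of 147, 189 and 307. The rise of Ccl4, named after its values were seen, was small (0.47 ± 0.11, adjusted p = 0.013) and was lost without Mo.Lu replicate 2 at 0.42 (adjusted p = 0.062), without Mo.6+2-.BL replicate 2 at 0.44 (adjusted p = 0.13) and without Mo.6+2-.BL replicate 3 at 0.50 (adjusted p = 0.084). Ccl6, Ccl9 and the interferon-induced Cxcl10 were well above background in all groups and not called, with log2 differences of -0.08 ± 0.12, 0.06 ± 0.15 and -0.11 ± 0.26. Of 18 tested chemoattractant receptors 1 was called, near the 5.41% called higher among all tested probe sets. This was Ccrl2, an atypical receptor that binds chemerin without signalling. It measured 1058, 978 and 1039 in lung, 141 and 121 in Mo.6+2-.BL and 126 in Mo.6+2+.BL (2.97 ± 0.13, adjusted p = 7.1e-10).

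Immediate early genes rose as a broad group, 31 of 42 tested with none lower, 24 of them at least 2-fold, and a list median of 1.24. The 31 became 30, 27 and 29 without Mo.Lu replicates 1, 2 and 3. They became fewer again without either Mo.6+2-.BL array, which leaves a lone array in that group. Rgs1, a regulator that shortens G protein signalling from chemokine receptors, had 795, 493 and 831 in lung and 40.1 and 33.1 in Mo.6+2-.BL and 39.6 in Mo.6+2+.BL, all below background there (4.2 ± 0.26, adjusted p = 2.6e-08, at least 7.87-fold). The orphan nuclear receptor Nr4a2 gave 1169, 1210.1 and 1106 in lung against 129 and 117 in Mo.6+2-.BL and 114 in Mo.6+2+.BL (3.24 ± 0.23, adjusted p = 1.6e-07). Both genes separated lung from all blood arrays. Fosb, a partner in the AP-1 transcription factor, measured 3807, 2686 and 1975 in lung, with replicate 1 the highest, and 318 and 287 in Mo.6+2-.BL and 282 in Mo.6+2+.BL (3.17 ± 0.25, adjusted p = 5.5e-07). Egr1, a zinc finger transcription factor induced within minutes of stimulation, measured 1639, 1671 and 1901 against 252 and 379 in Mo.6+2-.BL and 262 in Mo.6+2+.BL (2.49 ± 0.17, adjusted p = 9.5e-08). The lung arrays of Egr1 lay close together and above all blood arrays.

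Further members of that list, chosen here after their values were seen, covered the AP-1 subunits, their relatives and the feedback phosphatases. Fos rose by 2.18 ± 0.12, adjusted p = 5.8e-09, Junb by 1.95 ± 0.17, adjusted p = 1.2e-06 and Jun by 1.34 ± 0.18, adjusted p = 0.00019. Atf3, a stress-induced repressor, went from 1279.6 and 1178 in Mo.6+2-.BL and 1131 in Mo.6+2+.BL to 6988, 6508 and 5876 in lung (2.39 ± 0.13, adjusted p = 1.2e-08). Dusp1, the phosphatase that switches off p38 and JNK, was abundant in blood at 4471 and 3563 and reached 15106, 13463 and 12813 in lung (1.79 ± 0.16, adjusted p = 2.9e-06). Ppp1r15a, which restores translation after stress by dephosphorylating eIF2 alpha, rose by 2.46 ± 0.20, adjusted p = 7.9e-07, and Zfp36, which destabilises Tnf and other cytokine mRNA, by 0.99 ± 0.13, adjusted p = 0.00018. Members without a call included most heat-shock genes. Hspa1a had 1753, 2517 and 1539 in lung and 1573 and 1435 in Mo.6+2-.BL (0.33 ± 0.34, adjusted p = 0.58), and Hspa8, Hsph1 and Hsp90aa1 also missed the threshold (0.03 ± 0.12, 0.61 ± 0.36 and 0.48 ± 0.18). The chaperone cofactor Dnajb1 was called (0.94 ± 0.21, adjusted p = 0.012), but not without Mo.Lu replicate 2 (0.84, adjusted p = 0.051), Mo.6+2-.BL replicate 2 (0.95, adjusted p = 0.076) or Mo.6+2-.BL replicate 3 (0.93, adjusted p = 0.097). Rgs2, a relative of Rgs1, had 2515, 2784 and 2950.1 in lung and 2731 and 2774 in Mo.6+2-.BL, with overlap and no call.

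Rises also reached other transcription factors and signal inhibitors of the list, likewise chosen after their values were seen. Nr4a3 measured 274, 272 and 296 in lung against 61.4 and 88.5 in Mo.6+2-.BL and 56.5 in Mo.6+2+.BL (1.93 ± 0.28, adjusted p = 0.00043, at least 3.19-fold). Csrnp1, a nuclear protein induced by AXIN, measured 715, 667 and 657 against 183 and 180.3 in Mo.6+2-.BL and 175 in Mo.6+2+.BL (1.90 ± 0.19, adjusted p = 1.1e-05). In both, every lung array exceeded every blood array. Jund, the AP-1 subunit that is present in resting cells, rose from 608 and 598 in Mo.6+2-.BL to 1670.3, 1396 and 1722 (1.40 ± 0.24, adjusted p = 0.0016), and Socs3, the inhibitor of gp130 cytokine signalling, from 348 and 366 to 1012, 614 and 1053 (1.28 ± 0.20, adjusted p = 0.00072). Btg2, an antiproliferative gene, and Dusp5, a phosphatase of nuclear ERK, rose by 1.34 ± 0.13, adjusted p = 5.1e-06, and 1.54 ± 0.23, adjusted p = 0.0006. Zfp36l1, the relative of Zfp36, rose by 1.63 ± 0.23, adjusted p = 0.00032, but the Mo.6+2+.BL array at 269.7 lay close to the lowest of the lung values of 410.0, 292 and 574. Klf6, a factor induced on activation, rose by 0.78 ± 0.16, adjusted p = 0.0061, a call lost without Mo.6+2-.BL replicate 3 at 0.64 (adjusted p = 0.11).

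The Mo.6+2+.BL array sided with Mo.6+2-.BL for most of these genes. Of the 31 called members, 26 had their Mo.6+2+.BL value nearer the Mo.6+2-.BL mean than the lung mean. The median difference of the 31 was 1.40 from Mo.6+2-.BL and 0.98 from the Mo.6+2+.BL array. Ifrd1, an interferon-related developmental regulator outside the lists, had the same pattern, with 1616, 1688 and 1511 in lung, 159.9 and 120.5 in Mo.6+2-.BL and 246 in Mo.6+2+.BL (3.53 ± 0.30, adjusted p = 1.2e-06).

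NF-kB targets and regulators moved less evenly, with 12 of 25 tested higher, none lower and a median of 0.44. Without Mo.6+2-.BL replicate 3 the count fell to 7. Cd83, a surface protein that stabilises class II and a classical NF-kB target, had 1043, 852 and 825 in lung, 124 and 128 in Mo.6+2-.BL and 264 in Mo.6+2+.BL (2.84 ± 0.23, adjusted p = 7.9e-07). Tnfaip3, the A20 enzyme that ends NF-kB signalling, rose from 457 and 322 to 1464, 1117 and 1092 (1.66 ± 0.20, adjusted p = 6.9e-05), and Nfkbiz, an inducible nuclear cofactor, from 553 and 605 to 1649, 1602 and 1467 (1.44 ± 0.16, adjusted p = 3.1e-05). In each of these the lowest lung array exceeded all 3 blood arrays. Traf1, an adaptor of TNF receptors, was called (1.52 ± 0.20, adjusted p = 0.00017, at least 2.64-fold), although Mo.6+2+.BL at 222 lay between the lung values of 225, 216 and 252. The inhibitors Nfkbia and Nfkbie, named after their values were seen, rose by 0.76 ± 0.13, adjusted p = 0.0014, and 0.99 ± 0.16, adjusted p = 0.00098. The factor subunits Rel and Rela were expressed in all groups without a call (0.23 ± 0.13 and -0.06 ± 0.14), as were Birc3 and Bcl3 (0.01 ± 0.13 and -0.07 ± 0.22). Of the 12 called members, 6 had Mo.6+2+.BL nearer Mo.6+2-.BL and 6 nearer lung.

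Promoter sequence was read beside these calls, since the members rose together. The 250 bases before the RefSeq start (build GRCm38.p6) were searched on both strands for an AP-1 motif (TGANTCA), a cyclic AMP response element (TGACGTCA) and an NF-kB motif (GGANTTTCC or GGGANTTCC, forms that can overlap each other). An NF-kB motif was found in 7 of 14 promoters of the called NF-kB list, belonging to 6 of 9 matched genes (12 genes called), and in 2.46% of all 32851 promoters. Membership of that list rests on known regulation by NF-kB, so the count describes the list. In the immediate early list, 26 of 31 called genes matched, with 34 promoters. Of these 3 held a cyclic AMP element (8.82% against 1.55% of all promoters), 2 an AP-1 motif (5.88% against 6.75%) and 2 an NF-kB motif. The 4 sequences shown belong to strongly raised or feedback genes with a motif, 5′ to 3′ on the gene's strand, with motif bases in capitals: Cxcl2 (chr5:90903649-90903898, plus strand, 1 NF-kB motif), Nfkbia (chr12:55492648-55492897, minus strand, 2 NF-kB motifs), Tnfaip3 (chr10:19015411-19015660, minus strand, 1 AP-1 and 2 NF-kB motifs) and Dusp1 (chr17:26508473-26508722, minus strand, 1 cyclic AMP element).
Cxcl2: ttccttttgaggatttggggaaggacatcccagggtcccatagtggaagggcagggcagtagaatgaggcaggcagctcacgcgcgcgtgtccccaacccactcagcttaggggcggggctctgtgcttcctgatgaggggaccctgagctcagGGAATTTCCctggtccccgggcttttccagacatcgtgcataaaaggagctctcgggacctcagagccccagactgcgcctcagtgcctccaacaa
Nfkbia: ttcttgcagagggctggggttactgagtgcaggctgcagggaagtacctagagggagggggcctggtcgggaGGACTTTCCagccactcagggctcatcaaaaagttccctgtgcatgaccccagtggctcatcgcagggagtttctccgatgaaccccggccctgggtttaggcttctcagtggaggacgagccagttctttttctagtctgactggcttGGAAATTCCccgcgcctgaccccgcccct
Tnfaip3: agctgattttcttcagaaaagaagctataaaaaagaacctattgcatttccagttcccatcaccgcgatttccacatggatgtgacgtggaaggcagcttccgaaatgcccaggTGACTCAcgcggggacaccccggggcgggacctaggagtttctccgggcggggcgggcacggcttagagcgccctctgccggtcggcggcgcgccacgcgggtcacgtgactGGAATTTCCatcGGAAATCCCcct
Dusp1: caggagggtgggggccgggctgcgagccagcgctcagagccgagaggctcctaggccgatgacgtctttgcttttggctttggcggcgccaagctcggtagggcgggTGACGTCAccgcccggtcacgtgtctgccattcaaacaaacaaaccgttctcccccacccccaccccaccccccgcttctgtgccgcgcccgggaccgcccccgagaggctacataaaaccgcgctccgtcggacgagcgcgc
A match is a run of letters and shows no binding. The windows of Ptgs2, Il1b, Nr4a2, Fosb, Fos and Junb held none of these exact motifs.

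Of 23 tested pattern recognition genes 4 were higher (Cd14, Tlr2, Nlrp3 and Nod1) and 3 lower (Ly96, Pycard and Tlr8). Among all probe sets 5.41% were called higher and 3.55% lower, and the list median was -0.06. The 4 became 2 without Mo.Lu replicate 2 or Mo.6+2-.BL replicate 3, and the 3 became 1 without Mo.Lu replicate 3 and 0 without Mo.Lu replicate 2 or either Mo.6+2-.BL array. Cd14, the lipopolysaccharide co-receptor, had 3038, 1916 and 1761 in lung, highest in replicate 1, and 195 and 232 in Mo.6+2-.BL and 167 in Mo.6+2+.BL (3.36 ± 0.22, adjusted p = 6.1e-08). Trem1, which amplifies Toll-like receptor signals, gave 1698, 1825 and 1265 against 123 and 246 in Mo.6+2-.BL and 211 in Mo.6+2+.BL (3.18 ± 0.23, adjusted p = 1.5e-07). Both were above every blood array in all 3 lung arrays. Tlr2, the receptor for bacterial lipopeptides, measured 1604, 1495 and 1434 in lung, 685 and 828 in Mo.6+2-.BL and 524 in Mo.6+2+.BL (1.00 ± 0.17, adjusted p = 0.0012). Clec4n (Dectin-2), a receptor for fungal mannans, rose as well (1.69 ± 0.21, adjusted p = 7.6e-05). Trem1 and Clec4n are members of the list of scavenger, lectin and efferocytosis receptors and not of the pattern recognition list. Ly96, the partner of Tlr4 also known as MD-2, fell from 3174 and 3397 to 2133, 2078 and 2093 (-0.64 ± 0.18, adjusted p = 0.036). Its call was lost whichever array was left out, at -0.66 (adjusted p = 0.067), -0.64 (adjusted p = 0.087) and -0.64 (adjusted p = 0.083) without Mo.Lu replicates 1, 2 and 3, and at -0.69 (adjusted p = 0.14) and -0.60 (adjusted p = 0.22) without Mo.6+2-.BL replicates 2 and 3. Plaur, the urokinase receptor, had 4172, 3698 and 3447 in lung against 1505 and 1353 in Mo.6+2-.BL and 2011 in Mo.6+2+.BL, without overlap (1.40 ± 0.18, adjusted p = 0.00013). Il1r2, the decoy receptor that takes up interleukin 1, rose to 216, 169 and 197 from 81.7 and 62.4, with 76.1 in Mo.6+2+.BL (1.43 ± 0.27, adjusted p = 0.003, at least 2.21-fold), but not without Mo.6+2-.BL replicate 3 (1.24, adjusted p = 0.069).

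MHC class II presentation also had large rises, and here the gate bears on the result directly, because lung cells were selected as MHCII+. The class II, Itgax and Fcgr1 values therefore describe the sort and are no finding of the comparison. H2-Aa, the alpha chain of I-A, measured 7066, 7733 and 11426 in lung, 788 and 802 in Mo.6+2-.BL and 9779.8 in Mo.6+2+.BL (3.43 ± 0.22). H2-Ab1 and H2-Eb1, the beta chains of I-A and I-E, differed by 3.47 ± 0.25 and 3.57 ± 0.28. The Mo.6+2+.BL array lay within the lung range for all 3 chains, and Mo.6+2-.BL lay about as far below Mo.6+2+.BL as below lung. Cd74, the invariant chain, measured 8280.2, 8812 and 11692, 3169 and 3805 in Mo.6+2-.BL and 10955 in Mo.6+2+.BL (1.45 ± 0.18), and Ciita, the transactivator of class II genes, 481, 592 and 1423, 260.2 and 216 in Mo.6+2-.BL and 1247 in Mo.6+2+.BL (1.64 ± 0.34, adjusted p = 0.0069). The call of Ciita was lost without Mo.6+2-.BL replicate 3, at 1.51 (adjusted p = 0.092). The peptide-loading gene H2-DMa and the thiol reductase gene Ifi30 gave 0.22 ± 0.15 and 0.02 ± 0.14, with no call. Over the list, 7 of 11 tested members were higher with a median of 0.86. Of those 7, all had Mo.6+2+.BL nearer lung, and their median was 1.64 above Mo.6+2-.BL and -0.26 relative to Mo.6+2+.BL.

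Genes of cholesterol synthesis, which were not part of any gate, also had the Mo.6+2+.BL array near lung. Lung and Mo.6+2+.BL share the FACSAria label, which Mo.6+2-.BL lacks, and its part in this was not tested. Idi1, the isomerase of the isoprenoid pathway, had 778, 729.6 and 898 in lung, 209.7 and 249 in Mo.6+2-.BL and 614 in Mo.6+2+.BL (1.81 ± 0.22, adjusted p = 6.5e-05). Insig1, which restrains sterol sensing in the endoplasmic reticulum, had 1332, 1689 and 2028, 585 and 539 in Mo.6+2-.BL and 1042 in Mo.6+2+.BL (1.56 ± 0.18, adjusted p = 5.2e-05). In both, the lung arrays and the Mo.6+2+.BL array were above Mo.6+2-.BL. Hmgcs1 and Cyp51, enzymes early and late in the pathway, rose by 1.37 ± 0.21, adjusted p = 0.0005, and 1.41 ± 0.18, adjusted p = 0.00015, and Sqle and Srebf2, named after their values were seen, by 1.32 ± 0.24, adjusted p = 0.0024, and 0.75 ± 0.14, adjusted p = 0.0037. Fdft1 missed the threshold (0.74 ± 0.23, adjusted p = 0.057), as did the sterol exporters Abca1 and Abcg1 (-0.38 ± 0.27 and -0.13 ± 0.21). Over the list of lipid genes 8 of 19 tested members were higher, none lower, with a median of 0.52. All 8 had Mo.6+2+.BL nearer lung, with a median difference of 1.35 from Mo.6+2-.BL and 0.04 from Mo.6+2+.BL. Lung replicate 3 was the highest lung array in all 8. Lymph node monocytes titled Mo.6+2+.SLN had a mean above that of Mo.6+2-.BL in 1 of the 8.

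**Figure D3:**
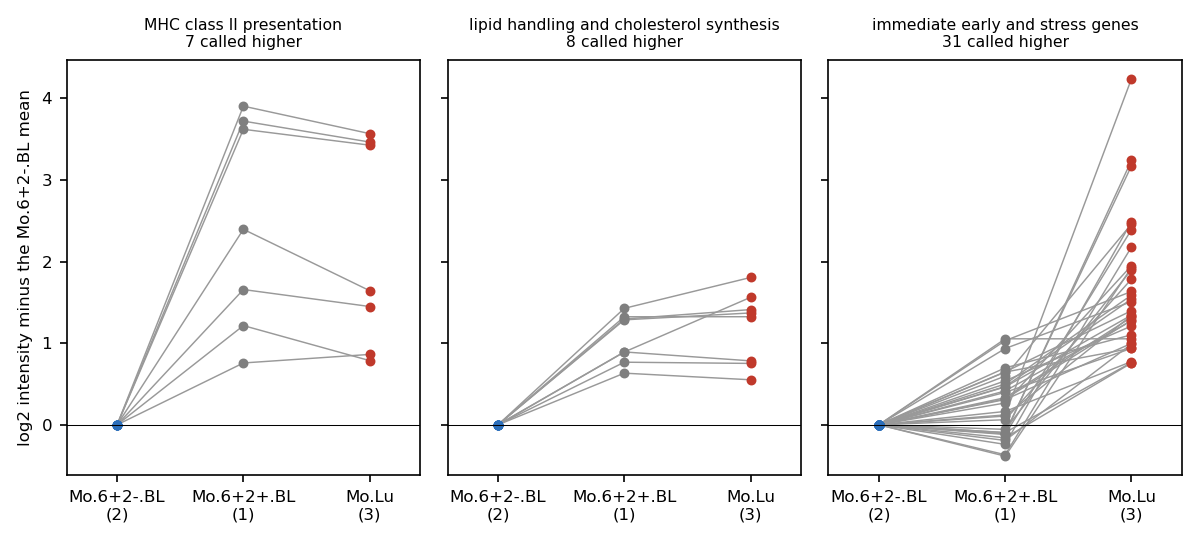
Each line is a gene called higher in Mo.Lu than in Mo.6+2-.BL, drawn as its mean log2 intensity in each group minus the Mo.6+2-.BL mean, with the number of arrays under each group. The Mo.6+2+.BL array lies near lung for the 7 class II and 8 lipid genes and nearer Mo.6+2-.BL for 26 of the 31 immediate early genes.

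Over all 698 probe sets higher in lung, the Mo.6+2+.BL array was nearer Mo.6+2-.BL in 351 and nearer lung in 347. All 3 lung arrays exceeded it in 517 of them (74.1%). Of the 183 with at least a 2-fold rise it was nearer Mo.6+2-.BL in 110, and of the 458 lower ones in 316. Since the calls used Mo.6+2-.BL, whose own deviations enter them, and Mo.6+2+.BL is a single array, these positions are a description with no test.

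Lung replicate 3 was the highest lung array in 5718 of 12900 tested probe sets, against 3554 and 3628 for replicates 1 and 2. It lay at least 2-fold above their mean in 24 and at least 2-fold below it in 8. The genes farthest above were C1qb, Spon1, Ocstamp, Cd209d, C1qc and Ciita, named after their values were seen. C1qb, a chain of complement C1q made by tissue macrophages, gave 183, 315 and 1218 in lung, 124 and 135 in Mo.6+2-.BL and 372 in Mo.6+2+.BL (1.67 ± 0.47, adjusted p = 0.037). Its difference was 0.89 (adjusted p = 0.021) without Mo.Lu replicate 3, and the call was lost without Mo.Lu replicate 2 at 1.87 (adjusted p = 0.052), without Mo.6+2-.BL replicate 2 at 1.61 (adjusted p = 0.19) and without Mo.6+2-.BL replicate 3 at 1.74 (adjusted p = 0.17). Mrc1, the mannose receptor, had 269, 213 and 467 in lung, 163 and 115 in Mo.6+2-.BL and 490.0, the highest of all, in Mo.6+2+.BL (1.13 ± 0.33, adjusted p = 0.044). The call of Mrc1 was lost without Mo.Lu replicate 1 at 1.21 (adjusted p = 0.064), replicate 3 at 0.81 (adjusted p = 0.16), Mo.6+2-.BL replicate 2 at 1.38 (adjusted p = 0.09) and replicate 3 at 0.88 (adjusted p = 0.33). Axl, a receptor for apoptotic cells, was raised without such a gap, at 1339.8, 1686 and 2111 in lung, 863 and 715 in Mo.6+2-.BL and 1693 in Mo.6+2+.BL (1.10 ± 0.19, adjusted p = 0.0015). Clec10a, a lectin for galactose, measured 321, 302 and 663 in lung, 176 and 107 in Mo.6+2-.BL and 378 in Mo.6+2+.BL (1.55 ± 0.47, adjusted p = 0.049). It lost its call without any 1 array: 1.71 (adjusted p = 0.06), 1.75 (adjusted p = 0.061) and 1.18 (adjusted p = 0.17) without Mo.Lu replicates 1, 2 and 3, and 1.91 (adjusted p = 0.096) and 1.19 (adjusted p = 0.34) without Mo.6+2-.BL replicates 2 and 3. Itgax, the CD11c of the lung gate, showed 482, 527 and 1030.4 in lung, 140.2 and 289 in Mo.6+2-.BL and 954 in Mo.6+2+.BL. The macrophage list summed highest in that lung array, at 13009.8, and the part of other cells in these values was not tested.

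**Figure D4:**
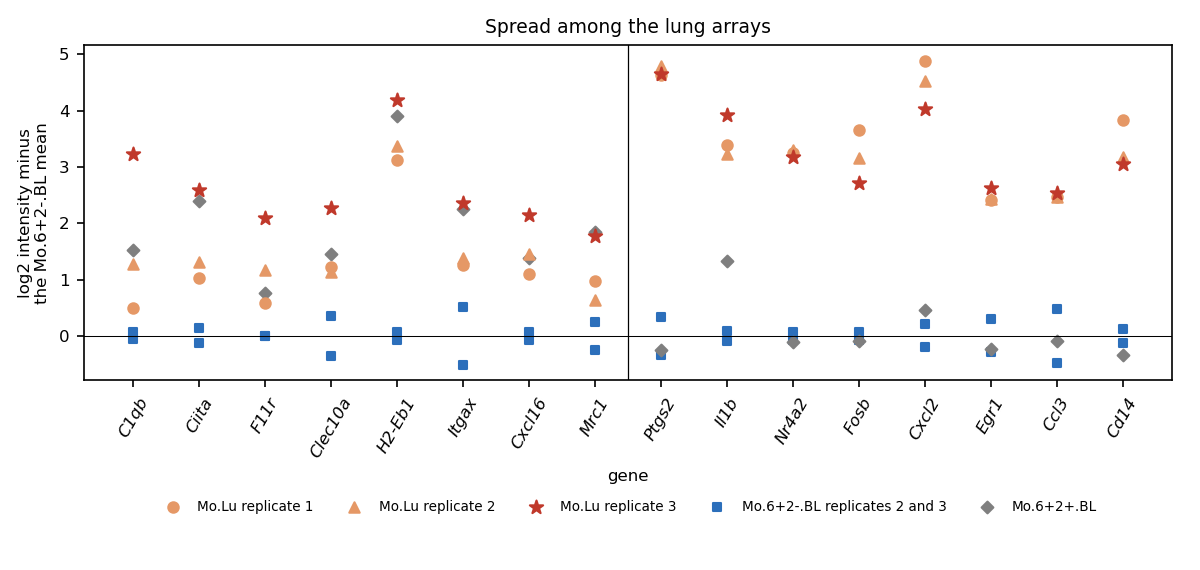
For 16 genes the log2 intensity of each lung array, each Mo.6+2-.BL array and the Mo.6+2+.BL array is plotted as its difference from the Mo.6+2-.BL mean. Lung replicate 3 (star) is the highest lung array for the 8 genes on the left, such as C1qb, and takes no constant place for the 8 inflammatory genes on the right.

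Of 37 tested transcription factors of the myeloid lineage 7 were higher and 1 lower, beside 5.41% and 3.55% of all probe sets, with a median of 0.15. The lower call was lost without Mo.Lu replicate 3 and without either Mo.6+2-.BL array. Ets2, a factor downstream of MAP kinases, had 1563, 1576 and 1228 in lung, 178 and 225 in Mo.6+2-.BL and 314 in Mo.6+2+.BL (2.86 ± 0.19, adjusted p = 6.1e-08). Cebpb, which drives inflammatory genes in macrophages, measured 1428, 1368 and 1472, 472 and 571 in Mo.6+2-.BL and 856 in Mo.6+2+.BL (1.45 ± 0.23, adjusted p = 0.00086). Hes1, a Notch target, and Prdm1 (Blimp-1) rose by 1.58 ± 0.20, adjusted p = 0.00011, and 1.50 ± 0.17, adjusted p = 4.9e-05. For all 4, each lung array exceeded each blood array. Genes of the nonclassical monocyte, which patrols vessels, were higher in 5 of 16 tested, or 3 without Mo.6+2-.BL replicate 2, and lower in none. Nr4a1, required for that subset and at the same time an immediate early gene, rose from 2467 and 3344 to 8784, 8979 and 8197, with 4062 in Mo.6+2+.BL (1.59 ± 0.17, adjusted p = 1.6e-05). Klf2, a factor that restrains activation, rose from 788 and 785 to 2032, 1734 and 1998, with 1525 in Mo.6+2+.BL (1.29 ± 0.20, adjusted p = 0.00086). For Slc12a2, an ion cotransporter (1.14 ± 0.18, adjusted p = 0.00095), the Mo.6+2+.BL array was above lung, at 717 against 486, 531 and 616. The subset's chemokine receptor Cx3cr1 did not pass (0.07 ± 0.17, adjusted p = 0.85).

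Of 11 tested coagulation genes 5 were higher and 1 lower, with a median of 0.04, the lower call being lost without Mo.Lu replicate 3 or either Mo.6+2-.BL array. These counts stand beside 5.41% higher and 3.55% lower among all probe sets, and the 5 became 4 without Mo.Lu replicate 2 or 3. Thbs1, the platelet and matrix glycoprotein thrombospondin 1, had 4795, 4961 and 3831 in lung, 619 and 848 in Mo.6+2-.BL and 338 in Mo.6+2+.BL (2.64 ± 0.20, adjusted p = 2.5e-07). Tgm2, a transglutaminase that crosslinks matrix, rose from 136 and 186 to 435, 654 and 902 (2.00 ± 0.24, adjusted p = 7.5e-05), with 357 in Mo.6+2+.BL. Both thus exceeded the blood arrays in every lung array. Thbd, thrombomodulin, a brake on thrombin, rose to 1567, 1334 and 1259 from 621 and 557, with 851 in Mo.6+2+.BL (1.23 ± 0.16, adjusted p = 0.00013). Adhesion genes had 4 higher and 2 lower of 23, but 1 higher and 0 lower without Mo.6+2-.BL replicate 2, and 3 higher and 1 lower without Mo.Lu replicate 2 or 3. Itgb5, a chain of a vitronectin receptor, rose by 1.06 ± 0.19, adjusted p = 0.0027, while Itga1, a chain of a collagen receptor, fell from 898 and 626 to 438, 381 and 191 (-1.24 ± 0.29, adjusted p = 0.013). The fall of Itga1 was lost without Mo.6+2-.BL replicate 2, at -0.98 (adjusted p = 0.17), and Mo.6+2+.BL at 327 was as low as lung. The adhesion counts stand beside the same shares of all probe sets. Itgax, 1 of the 4 higher, belongs to the lung gate. Itgb2, the common chain of the leukocyte integrins, did not pass (0.11 ± 0.12, adjusted p = 0.61).

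The largest falls, ranked under the same condition of no overlap, were smaller than the largest rises. H2bc8, a histone H2B gene, went from 1139 and 1294 in Mo.6+2-.BL, with 1109 in Mo.6+2+.BL, to 353, 363 and 274 in lung (-1.89 ± 0.22, adjusted p = 4.9e-05). H1f3, a linker histone, fell to 93.3, 69.4 and 92.9 from 222 and 313, with 334 in Mo.6+2+.BL (-1.64 ± 0.23, adjusted p = 0.00033, at least 2.89-fold with lung near background). Both histone genes were lower in every lung array than in any blood array. Uprt, named for uracil phosphoribosyltransferase, differed by -1.51 ± 0.25, adjusted p = 0.0014. The zinc finger gene Zfp760 differed by -1.47 ± 0.17, adjusted p = 3.8e-05, at least 2.52-fold with lung near background, and Zbtb26 by -1.31 ± 0.19, adjusted p = 0.00042. Klrb1f, a C-type lectin-like receptor, measured 554, 371 and 424 in lung, 1438 and 999.8 in Mo.6+2-.BL and 546 in Mo.6+2+.BL (-1.44 ± 0.24, adjusted p = 0.0013). Tmem167 differed by -1.52 ± 0.20, adjusted p = 0.00017, and Ccdc125 by -1.24 ± 0.24, adjusted p = 0.0037, the latter not called without Mo.6+2-.BL replicate 2 (-1.15, adjusted p = 0.054).

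Of 20 tested genes of the classical monocyte 2 were higher and 3 lower, beside 5.41% and 3.55% of all probe sets, with the 3 falls at 0 without Mo.6+2-.BL replicate 3. The other 15 were not called, among them Lyz2 (lysozyme, -0.02 ± 0.09), Plac8 (0.20 ± 0.43), Ms4a4c (-0.03 ± 0.25), S100a4 (-0.01 ± 0.13) and F13a1, the coagulation factor XIII A chain (-0.51 ± 0.19). The 2 rises were Cd14 and Thbs1. Of the falls, Vcan, a matrix proteoglycan, measured 631, 828 and 510.0 in lung, 1162 and 1982 in Mo.6+2-.BL and 409.6 in Mo.6+2+.BL (-1.24 ± 0.28, adjusted p = 0.011), and was not called without Mo.6+2-.BL replicate 3 (-0.85, adjusted p = 0.2). Hp, the hemoglobin scavenger haptoglobin, measured 1550.4, 1338 and 1352, 2282 and 2300.4 in Mo.6+2-.BL and 1099 in Mo.6+2+.BL (-0.70 ± 0.20, adjusted p = 0.039). For these genes and F10 the Mo.6+2+.BL array was nearer lung than Mo.6+2-.BL, and for Vcan and Hp below it. The fall of Hp was lost without Mo.Lu replicate 2 (-0.66, adjusted p = 0.1), Mo.Lu replicate 3 (-0.67, adjusted p = 0.1), Mo.6+2-.BL replicate 2 (-0.71, adjusted p = 0.17) and Mo.6+2-.BL replicate 3 (-0.69, adjusted p = 0.2). That of F10, coagulation factor X (-0.67 ± 0.17, adjusted p = 0.02) was lost without Mo.Lu replicate 3 (-0.54, adjusted p = 0.079), Mo.6+2-.BL replicate 2 (-0.68, adjusted p = 0.11) and Mo.6+2-.BL replicate 3 (-0.66, adjusted p = 0.14).

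**Figure D5:**
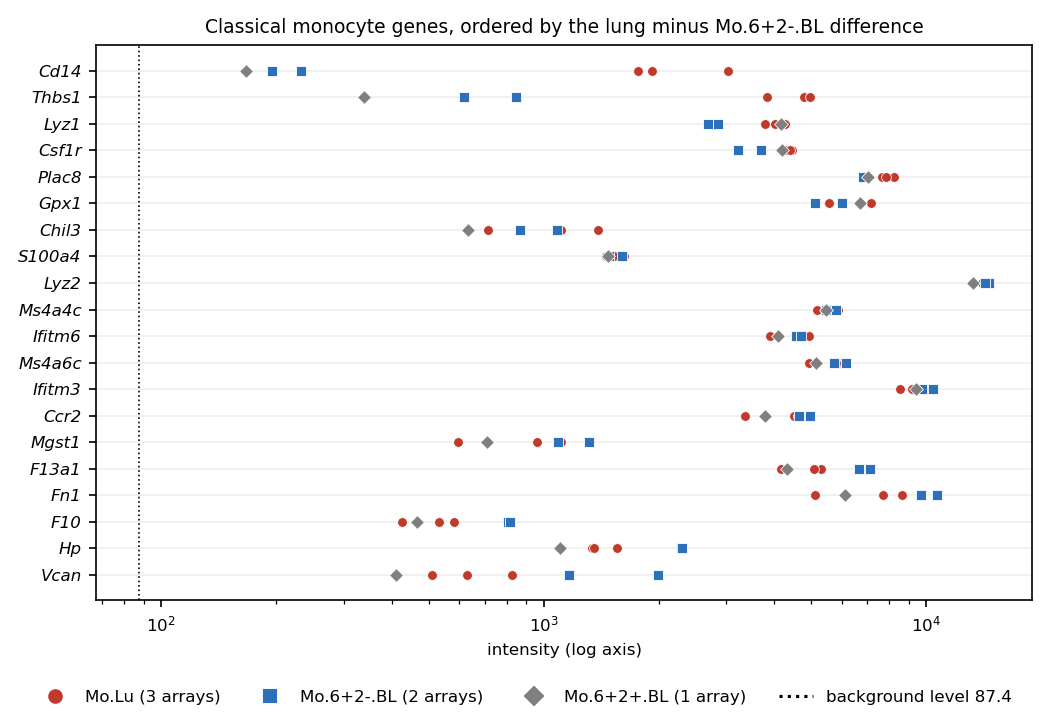
Intensity (log axis) of 20 classical monocyte genes on each of the 6 arrays, ordered by the lung minus Mo.6+2-.BL difference. Cd14 and Thbs1 at the top are higher in all 3 lung arrays, F10, Hp and Vcan at the bottom are lower, and the 15 genes between them did not pass the test.

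In the interferon response 3 of 27 tested genes were higher and 1 lower, beside 5.41% and 3.55% of all probe sets, with a median of 0.12, and none reached 2-fold. The 3 became 1 without Mo.Lu replicate 2 or without either Mo.6+2-.BL array, and the 1 became 0 without Mo.6+2-.BL replicate 2 or any single lung array. Oas3, an antiviral oligoadenylate synthetase, had 1445, 1529 and 1520.4 in lung against 969 and 891 in Mo.6+2-.BL and 1145 in Mo.6+2+.BL (0.69 ± 0.12, adjusted p = 0.0018). Cell cycle genes had 0 higher and 2 lower of 18, but 1 lower without Mo.Lu replicate 1 or 3 and 0 without Mo.6+2-.BL replicate 3. Lysosomal genes had 3 higher of 24, but 1 without Mo.6+2-.BL replicate 2. Cytokine receptors had 3 higher of 25, but 0 without Mo.6+2-.BL replicate 3. Glycolysis and hypoxia genes had 2 higher and 1 lower of 20, but 1 and 0 without Mo.6+2-.BL replicate 2. The lysosomal protease Ctsl rose by 0.87 ± 0.13, adjusted p = 0.00048, and Slc16a3, the lactate exporter, by 0.99 ± 0.17, adjusted p = 0.0016. Pmaip1 (Noxa), a BH3-only inducer of apoptosis, had 938, 817 and 1184 in lung, 286 and 269.7 in Mo.6+2-.BL and 508 in Mo.6+2+.BL (1.80 ± 0.23, adjusted p = 0.00013), the largest of 2 rises and 1 fall among 15 apoptosis genes. These became 1 and 0 without Mo.Lu replicate 3 or either Mo.6+2-.BL array, 1 and 1 without Mo.Lu replicate 2, and 2 and 0 without Mo.Lu replicate 1. Costimulation genes were higher in 4 of 12, led by Cd83 and by Pvr, the ligand of DNAM-1 (0.90 ± 0.16, adjusted p = 0.0016), and in 2 without Mo.Lu replicate 2 or either Mo.6+2-.BL array. Adam8, a metalloprotease of leukocytes, rose by 1.07 ± 0.15, adjusted p = 0.00039.

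Levels in other tissue-derived cells of the series are given without a test. Ptgs2 averaged 3531 in Ly6C+ MHCII+ monocytes of lymph node (Mo.6+2+.SLN, 3 arrays) and 544 in CD11b+ lung macrophages (MF.11c-11b+.Lu, 3 arrays). Il1b averaged 4252 and 396 in the same groups, and Nr4a2 1306 and 363. Ccl2 averaged 1322 in lymph node monocytes and 6025 in the lung macrophages. Ccr2 averaged 4701 in lymph node monocytes and 152 in CD11b+ lung macrophages, and Trem1 averaged 652 and 49.3. Other genes raised in lung monocytes lay higher in the macrophages, with Fosb at 1886 in lymph node monocytes and 4719 in the macrophages, Egr1 at 583 and 3877, and Cxcl2 at 594 and 2518. Of the 31 called immediate early genes, the mean of the macrophages was above that of lung monocytes in 20 and above that of Mo.6+2-.BL in 27, and the mean of lymph node monocytes in 8 and 30. The cholesterol gene Idi1 stood at 198 and 111, below both Mo.6+2-.BL values.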

How the data were processed

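The series-matrix intensity of 24922 probe sets on 145 arrays was deposited by the authors. Per the submitters' processing notes, Affymetrix Power Tools and RMA made it, with versions not given in the sources used here. Of the probe sets, 21425 carry 1 gene symbol, 1399 several and 2098 are not listed.

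Log2 was taken here of the deposited intensity. A linear model was fitted with limma 3.58.1 (R 4.3.3, with version 1.17.8 of its data.table package) to 14 arrays of 5 groups: Mo.Lu, Mo.6+2-.BL, and, for the estimate of the spread, lymph node monocytes (Mo.6+2+.SLN), MF.11c-11b+.Lu and MF.Alv.Lu. The background intensity was 87.4, the 95th percentile of 1035 olfactory receptor probe sets, and did not decide which probe sets were tested. Testing was limited to probe sets with a Mo.Lu or Mo.6+2-.BL mean no lower than the median intensity, taken over the 5 compared arrays together. This left 12900 probe sets. Benjamini-Hochberg adjustment ran over all of these, with a threshold of 0.05. For a group mean at or below background, each array of that group was taken at the higher of its own value and the background intensity, and the fold is given as "at least". Where a gene has several probe sets, the one with the highest mean over the compared arrays stands for it. On simulated data with 12779 probe sets for this comparison, 40.3%, 91.0% and 97.0% of changes of 0.5, 1 and 2 on the log2 scale were called, with 9 false calls. The number of arrays limits the precision.

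The genes named are the 10 strongest increases and 10 strongest decreases of called probe sets with 1 symbol and no overlap between groups (no predicted genes, small RNAs or receptor segments), up to 4 called members of each list by size of change, and the genes of the sort markers with Ccr2. List members without a call are named with their values, and further called genes were added after their values were seen. The members and lists were chosen with earlier results of these data known. Replicate numbers 2 and 3 occur in both groups. Deviations of same-numbered arrays from the group means correlated with r of -0.015 and 0.071, and the labels give no meaning to the number, so it was not used as a pairing. Alternatives changed the filter, the normalization, the log2 offset, the arrays in the fit, the variance model and the replicate block, or left out 1 array.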

Additional observations from a re-analysis of the deposited data

How the results depend on the processing

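Of 13 alternatives, the fit to the 5 compared arrays alone gave 1959 called probe sets (1210 higher and 749 lower) in place of 1156 (698 and 458), and the fit to all arrays of the series gave 730 (503 and 227). Leaving out 1 array in turn gave 357 to 905 calls, 237 to 560 higher and 109 to 345 lower, and 7 to 11 in place of 12 called NF-kB list members, the lone array left in Mo.6+2-.BL being assumed to vary like the other groups. Calls of at least 2-fold stayed between 161 and 250 in place of 222. Quantile normalization gave 626 higher and 632 lower. With the replicate number as a block the fit called 1011 probe sets (670 higher, 341 lower). The numbers are not known to pair the arrays. Of the 148 called genes named by rule or added, 83 kept their call under each of the 13 alternatives in which they were tested. The other 65 lost it under at least 1. Some genes did not pass the filter of every alternative, such as H1f3 and Vegfa, which were tested in 12. The uncalled Cd3e reversed to -0.16 without Mo.6+2-.BL replicate 2, within a range of -0.16 to 0.41 over the fits without 1 array. Signals near the background intensity limit the folds of dim genes.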

Other observations

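Some families of genes outside the lists were counted after the values had been seen, so the counts are descriptions with no test. Of 224 tested probe sets of zinc finger genes with a Zfp symbol, 45 were lower in lung than in Mo.6+2-.BL and 4 higher, beside 3.55% lower and 5.41% higher among all tested, and 168 of the 224 lay below 0 (median -0.24). The median against the single Mo.6+2+.BL array was -0.26. The largest of these falls was that of Zfp760, and the 4 rises were Zfp330, Zfp622 and the mRNA-binding genes Zfp36 and Zfp36l1, which are also members of the immediate early list. Of 18 probe sets of replication-dependent histone genes, 4 were lower and 0 higher (median -0.37), among them H3c4 with 133, 128 and 139 in lung, 256 and 353 in Mo.6+2-.BL and 229.8 in Mo.6+2+.BL.

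Small nucleolar RNAs, which guide chemical modification of ribosomal RNA, went the other way, with 24 of 43 probe sets higher, 0 lower and a median of 0.75 against Mo.6+2-.BL and 0.25 against Mo.6+2+.BL. Snora75 measured 168, 205 and 211 in lung, 65.2 and 52.6 in Mo.6+2-.BL and 94.4 in Mo.6+2+.BL. Of the probe sets annotated to microRNA genes 7 of 76 were higher and 2 lower, near the shares of all probe sets, but the cluster of Mir23a, Mir27a and Mir24-2 was among the 7. Mir27a had 1369, 883 and 836 in lung, 327 and 266 in Mo.6+2-.BL and 410.4 in Mo.6+2+.BL. A probe set of a microRNA gene does not measure the mature microRNA. Chd7, a chromatin remodeller, carried 29 tested probe sets, of which 16 were higher and 0 lower, with a median of 0.67.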
